A study of Mus musculus with 6 samples.

Results

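The genes that encode the outer dynein arm and its docking complex were followed in mouse airway cells. There were 10 of them, chosen by symbol: the heavy chain genes *Dnah5*, *Dnah9* and *Dnah11*, the intermediate chain genes *Dnaic1* and *Dnaic2*, the light chain gene *Dnal1*, and the docking genes *Armc4*, *Ccdc114*, *Ccdc151* and *Ttc25*. All 10 were present among the 20483 genes of the count table. The cells were grown from the tracheas of C57BL/6 mice, aged 12 weeks, and were differentiated at an air-liquid interface, which lets basal cells form secretory and multiciliated cells in culture. There were 3 *WT/WT* mice (WT1, WT2 and WT3) and 3 mice homozygous for a missense change of the dynein assembly factor *Dnaaf5* (labelled DNAAF5 Mutant and called *MIS/MIS* here; MT1301, MT1306 and MT1383), with 1 droplet library of 3′ ends per mouse. The allele was made by genome editing and also carries a synonymous change upstream of the missense one. The 3′ counts cannot show the edited base, so the genotype labels were not checked in these data.

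Outer dynein arms are the motors that stand in a row along each outer doublet microtubule of a motile cilium and drive its beat. A heavy chain carries the motor domain, intermediate and light chains hold the heavy chains together, and the docking complex fixes the arm to the doublet. In respiratory cilia *Dnah5* occurs along the cilium, together with *Dnah11* near its base and with *Dnah9* further out. The arms are put together in the cytoplasm before transport into the cilium, and *Dnaaf5* is one of the assembly factors needed for this step. Loss of many of these genes causes primary ciliary dyskinesia.

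In the GRCm38 annotation *Dnah5* is on chromosome 15 (28203752 to 28472052, plus strand), *Dnah9* on chromosome 11 (65831282 to 66168551, minus strand) and *Dnah11* on chromosome 12 (117877982 to 118199043, minus strand). *Dnaic1* is on chromosome 4 (41569775 to 41638158, plus), *Dnaic2* on chromosome 11 (114727408 to 114757889, plus) and *Dnal1* on chromosome 12 (84114366 to 84147498, plus). Of the docking genes, *Ccdc114* is on chromosome 7 (45924072 to 45948963, plus), *Ccdc151* on chromosome 9 (21989871 to 22002634, minus) and *Ttc25* on chromosome 11 (100545607 to 100572568, plus). No member shared exon sequence with another gene on the same strand.

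The promoters of 5 members are shown because all 10 genes were highest in multiciliated cells, and these 5 hold a match, in the stretch printed, to a motif that was searched for. The sequences are the 120 bases before the RefSeq start site in GRCm38.p6, 5′ to 3′ on the strand of the gene, and capitals mark the motif matches. For *Dnah5*, *Dnaic1* and *Dnaic2* the last bases shown lie inside the gene as GENCODE draws it.
Dnah5, chr15:28203646-28203765, plus strand: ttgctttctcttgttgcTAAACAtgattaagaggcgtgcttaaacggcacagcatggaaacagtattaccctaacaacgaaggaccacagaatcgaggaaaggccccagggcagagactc
Dnah9, chr11:66168552-66168671, minus strand: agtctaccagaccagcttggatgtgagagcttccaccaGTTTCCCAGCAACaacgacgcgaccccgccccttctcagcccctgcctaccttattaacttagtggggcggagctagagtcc
Dnaic1, chr4:41569674-41569793, plus strand: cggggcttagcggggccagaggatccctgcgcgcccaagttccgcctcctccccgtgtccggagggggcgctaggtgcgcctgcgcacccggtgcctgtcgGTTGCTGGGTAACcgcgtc
Dnaic2, chr11:114727299-114727418, plus strand: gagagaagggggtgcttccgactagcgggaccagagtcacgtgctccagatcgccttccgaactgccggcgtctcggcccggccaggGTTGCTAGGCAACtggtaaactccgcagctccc
Ccdc151, chr9:22002635-22002754, minus strand: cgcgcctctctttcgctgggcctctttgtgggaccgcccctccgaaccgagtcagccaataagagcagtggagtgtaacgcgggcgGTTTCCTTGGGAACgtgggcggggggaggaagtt

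RefSeq promoters were found for 8 of the 10 members, all except *Armc4* and *Ttc25*, and the 250 bases before each start were searched on both strands. RFX factors, which act in ciliated cells, are known to bind the X-box, an imperfect inverted repeat. The inverted repeat of GTTNC and GNAAC with 3 bases between them, which was defined only after the sequences had been seen, occurred in *Dnah9* (-82 to -70 from the start), *Dnaic1* (-19 to -7) and *Dnaic2* (-33 to -21), 3 of the 8 promoters, and in 0.831% of all 32851 promoters. The *Dnaic1* match lies before the RefSeq start but wholly inside the gene as GENCODE draws it. The inverted repeat of GTNNCC and GGNNAC with 2 bases between them occurred in *Ccdc151* (-34 to -21), 1 of 8, and in 1.57% of all promoters. The single arm GTTGCC occurred in *Dnaic2* alone, where its match overlaps the inverted repeat, and in 10.4% of all promoters. TAAACA, the core bound by forkhead factors such as *Foxj1*, occurred in *Dnah5* (-103 to -98) and *Dnah11* (-186 to -181), 2 of 8, and in 12.0% of all promoters. A match describes the letters and no binding was measured.

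The table held 23871 cells in 16 annotated cell types: 8 basal, 2 secretory and 4 multiciliated clusters, ionocytes and neuroendocrine cells. The multiciliated clusters held 4823 cells, between 332 and 2155 per mouse, with 13525483 to 53211600 unique molecular identifiers (UMIs, 1 per captured molecule) per mouse. MT1383 gave the most multiciliated cells and the lowest depth, with a median of 23880 UMIs per multiciliated cell against 39899.5 in WT1. There were 67 cell barcodes found in more than 1 library, on 134 cells, of which 28 were multiciliated. The label was checked with markers. *Foxj1*, the main transcription factor of motile ciliogenesis, had 72.5, 716, 344 and 195 CPM (UMI counts scaled to the total of the cells summed) in Multiciliated1, Multiciliated2, Multiciliated3 and Multiciliated4 and 3.10 CPM in the basal cells pooled. *Tppp3*, a tubulin-binding protein of ciliated cells, had 706, 495, 2251 and 2866 CPM in the same order. *Deup1*, a gene linked to centriole amplification, had 364 CPM in Multiciliated2 and between 2.96 and 14.1 CPM in the other multiciliated clusters. Multiciliated1, the lowest for *Foxj1*, had the secretory marker *Scgb3a2* at 1637 CPM, where Multiciliated3 had 90.4 CPM. The ionocyte marker *Foxi1*, the leukocyte marker *Ptprc* and the fibroblast marker *Col1a1* were each under 0.5 CPM in every multiciliated cluster.

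All but *Dnal1* of the 10 genes were found almost entirely in multiciliated cells. For each of the 10, the lowest of the 4 multiciliated clusters was above every one of the other 12 cell types. Between 95.8% and 98.6% of a gene's UMIs came from multiciliated cells for all members other than *Dnal1*, for which the share was 62.6%. Since the annotation was made from all genes, these levels are given as a description, with no test. UMIs count molecules at their 3′ end and were not divided by gene length.

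*Dnah5* was the most abundant member, at 662.5 CPM in Multiciliated3 with the mice pooled (656.7 ± 61.7, SD, n = 6 mice), against 1.3 CPM in basal cells. *Dnah9* had 192 CPM (185 ± 22.1) in Multiciliated3 and 0.447 CPM in basal cells, and *Dnah11* had 94.4 CPM (94.1 ± 6.50) and 0.283 CPM. All 3 heavy chain genes were thus highest in Multiciliated3. *Dnaic2* had 198 CPM (193 ± 15.2) and *Dnaic1* 65.1 CPM (64.2 ± 6.91) in Multiciliated3. *Dnal1*, which encodes a light chain of the arm, had 77.0 CPM (76.4 ± 4.06) in Multiciliated3 and 7.89 CPM in basal cells, so it was the only member above 2 CPM there. The ratio of *Dnah5* to *Dnal1* was 8.60 in Multiciliated3, 0.165 in basal cells and 0.149 in secretory cells, whereas the ratio of *Dnah5* to *Dnah9* was 3.46 in Multiciliated3 and 2.90 in basal cells. Of the docking genes in Multiciliated3, *Armc4* had 110 CPM (107.6 ± 8.41), *Ccdc114* 98.7 CPM (97.1 ± 5.35), *Ccdc151* 97.5 CPM (94.5 ± 6.72) and *Ttc25* 82.3 CPM (81.2 ± 5.29). In this order of levels in Multiciliated3, *Dnaic2* and *Dnah9* lay within the larger of their SDs, as did *Ccdc114*, *Ccdc151* and *Dnah11*, and *Ttc25* and *Dnal1*.

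Outside the multiciliated clusters, 8 of the 10 genes were under 1 CPM in basal cells pooled, and the exceptions were *Dnah5* and *Dnal1*. The highest other level of *Dnal1* was 23.1 CPM, in ionocytes, and that of *Dnah9* was 5.02 CPM, in neuroendocrine cells. There were 28 ionocytes and 163 neuroendocrine cells, and 1 and 3 mice respectively had 10 or more of them, so these levels rest on few cells.

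**Figure D1:**
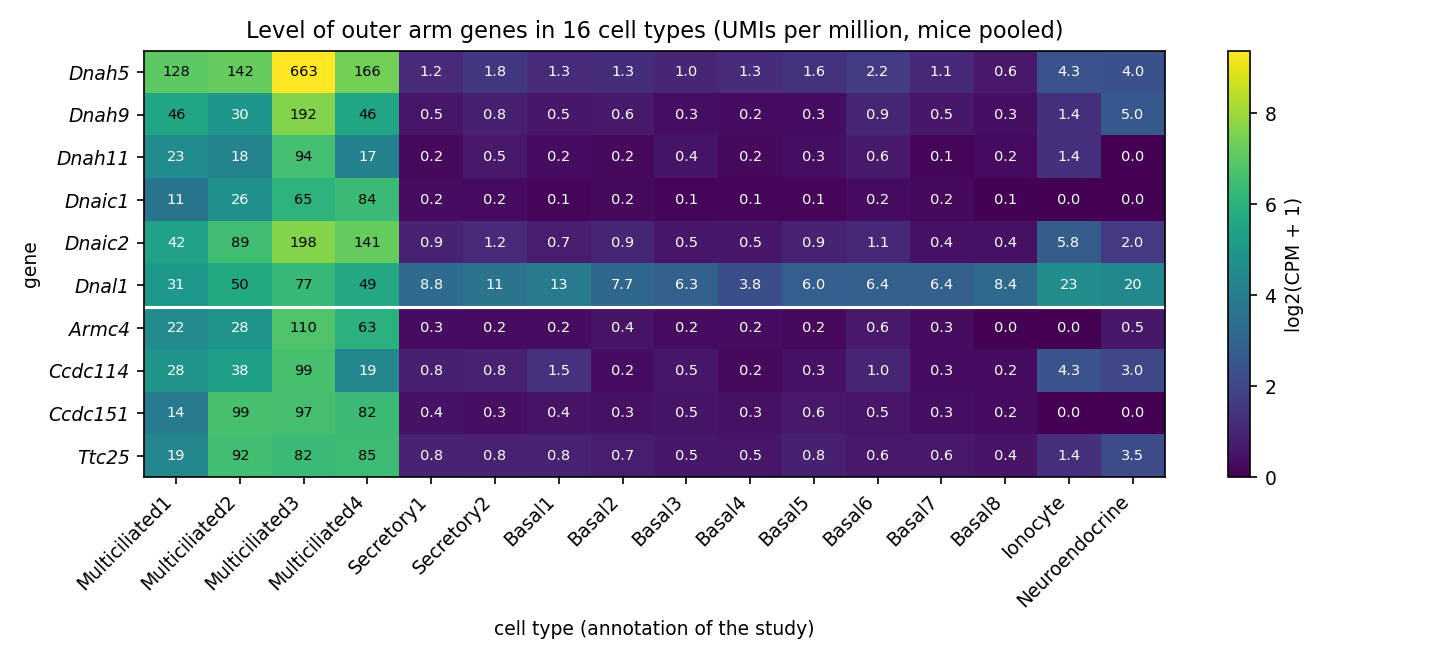
Level of each of the 10 genes (rows; motor genes above the white line, docking genes below it) in the 16 cell types (columns), in CPM with the 6 mice pooled; the colour is log2(CPM + 1) and the number in each cell is the CPM. The 4 multiciliated columns are the highest for every gene, and *Dnal1* is the only row with levels above 2 CPM in every basal cluster.

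Cells in which a gene was seen were counted after each cell had been thinned to 5000 UMIs. *Dnah5* had a UMI in 90.4% of thinned Multiciliated3 cells (99.0% before thinning) and in 0.764% of thinned basal cells, at median depths of 26359.5 and 26312 UMIs. *Dnaic2* had one in 60.9% and 0.324%, *Dnah9* in 59.5% and 0.243%, and *Armc4* in 41.6% and 0.108%. With the shares in basal cells taken as background, the shares in Multiciliated3 were far above it for every member. *Dnal1* was seen in 31.2% of thinned Multiciliated3 cells and in 3.94% of basal cells, and *Dnaic1*, the least often seen, in 26.7% and 0.072%. The median Multiciliated3 cell held UMIs of 5 of the 10 genes after thinning and of 9 without it.

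The 4 multiciliated clusters differed in which members were high. With the mice pooled, 7 of the 10 genes were highest in Multiciliated3, the largest cluster with 2712 cells. *Ccdc151* and *Ttc25* were highest in Multiciliated2, which had the most *Foxj1* and *Deup1*. Both lay close to their Multiciliated3 levels, and the mice differed in direction. *Dnaic1* was highest in Multiciliated4, on 136 UMIs. In WT1 it had 53.3 CPM there and 71.0 CPM in Multiciliated3, while the other mice with at least 10 cells were higher in Multiciliated4. The clusters differed in quality too. The 146 cells of Multiciliated4 had 10197 UMIs and 1.29% mitochondrial UMIs at the median, where the other 3 had medians of 26359.5 to 38781 UMIs and 8.51% to 10.9%. The part of these differences in the levels below was not tested.

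In Multiciliated2 the heavy chain genes had the lowest shares of their Multiciliated3 levels, at 21.4% for *Dnah5*, 15.4% for *Dnah9* and 18.8% for *Dnah11*. The other motor genes were nearer, with 39.9% for *Dnaic1*, 44.9% for *Dnaic2* and 65.5% for *Dnal1*. The docking genes ranged widely, with 25.1% for *Armc4*, 38.7% for *Ccdc114*, 101.6% for *Ccdc151* and 112% for *Ttc25*. The heavy chain genes lay below *Ccdc151* and *Ttc25* in each mouse. The log2 ratio of Multiciliated2 to Multiciliated3 for *Dnah5* was -3.12, -2.28 and -2.00 in the *WT/WT* mice and -2.33, -2.86 and -1.88 in the *MIS/MIS* mice. For *Ccdc151* it was -0.13, 0.00 and 0.30 in *WT/WT* and -0.20, -0.10 and 0.18 in *MIS/MIS*, and for *Ttc25* -0.10, -0.12 and 0.22 in *WT/WT* and 0.08, 0.25 and 0.39 in *MIS/MIS*. No mouse overlapped between the heavy chain genes (-3.26 to -1.88) and *Ccdc151* or *Ttc25* (-0.20 to 0.39). *Armc4*, with -2.23, -1.91 and -2.07 in *WT/WT* and -2.42, -1.99 and -1.73 in *MIS/MIS*, overlapped the heavy chain genes and was below *Dnah5* in WT3 and MT1301. All 10 genes were lower in Multiciliated1 than in Multiciliated3 in every mouse, with pooled shares of 14.5% (*Ccdc151*) to 39.8% (*Dnal1*). In Multiciliated4, *Ccdc114* and *Dnah11* had 19.3% and 17.6% of their Multiciliated3 levels, while *Ttc25* had 103% and *Dnaic1* 128%.

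**Figure D2:**
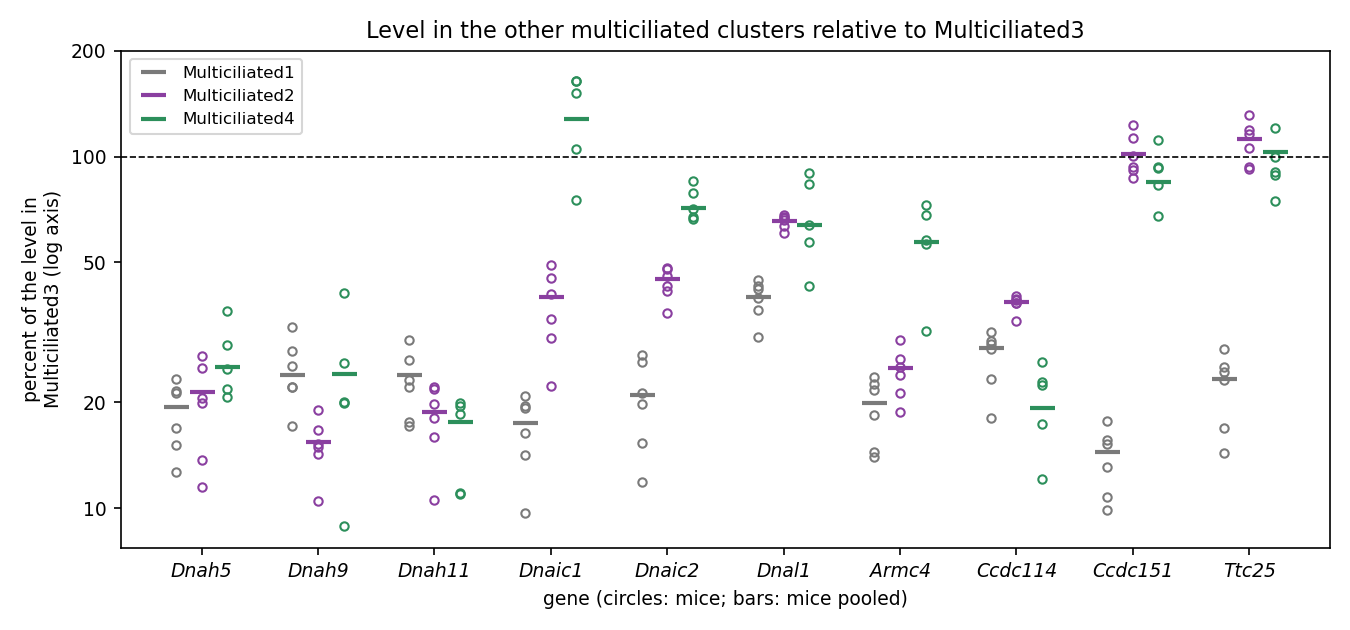
Level of each gene in Multiciliated1, Multiciliated2 and Multiciliated4 as a percentage of the level in Multiciliated3 (log axis); circles are mice with at least 10 cells and bars are the mice pooled, and the dashed line marks equal levels. The heavy chain genes in Multiciliated2 lie at 15.4% to 21.4%, and *Ccdc151* and *Ttc25* at 101.6% and 112%.

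The genes whose profile over the 16 cell types was most like the mean of the members, by Pearson's r of log2(CPM + 1) among 9877 genes, were *Cfap70* (0.995), *Lrrc71* (0.995), *Cfap65* (0.994), *Mak* (0.994) and the inner arm heavy chain gene *Dnah6* (0.994). The members themselves had r of 0.922 (*Dnal1*) to 0.996 (*Dnah5*) with their mean, which contains each of them and so raises their r. The 16 points share libraries, and the 4 multiciliated types lie far above the other 12 for all members.

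The genotype comparison asked whether the transcripts of the arm changed in cells in which *Dnaaf5* carries the missense change. With the multiciliated cells of each mouse summed, the fitted value of all 10 genes was slightly higher in *MIS/MIS*, by 0.08 to 0.34 on the log2 scale, and none passed the adjusted threshold of 0.05. Across all 14206 genes tested with limma voom, 1 gene was called, or 0.00704%. The 10 adjusted p-values lay between 0.896 and 0.905. The values of single mice show that the highest level of each of the 10 genes was in MT1306.

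*Dnah5* had 350, 339 and 347 CPM in WT1, WT2 and WT3, and 382, 542 and 390.5 CPM in MT1301, MT1306 and MT1383. The *MIS/MIS* mice were all above the *WT/WT* mice, with a log2 difference of 0.31 (SE 0.14, limma voom, unadjusted p = 0.0565). *Dnah9*, the distal partner of *Dnah5*, had 103, 91.3 and 95.8 CPM in *WT/WT* and 102, 155 and 119.6 CPM in *MIS/MIS*. Here MT1301 lay within the *WT/WT* range, and the log2 difference was 0.34 (SE 0.15, limma voom, unadjusted p = 0.0568). *Dnah11*, the proximal partner, had 55.8, 45.9 and 53.0 CPM in *WT/WT* and 53.5, 73.1 and 57.3 CPM in *MIS/MIS*. Its groups overlapped, with a log2 difference of 0.22 (SE 0.14).

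*Dnaic2* had 118, 112 and 115 CPM in *WT/WT* and 131, 151 and 139 CPM in *MIS/MIS*. It was higher without overlap and had the lowest p of the 10, with a log2 difference of 0.26 (SE 0.08, 95% interval 0.07 to 0.45, limma voom, unadjusted p = 0.0139, adjusted p = 0.896). The other intermediate chain gene, *Dnaic1*, had 39.3, 34.5 and 41.0 CPM in *WT/WT* and 36.6, 55.1 and 43.2 CPM in *MIS/MIS*. Its groups overlapped (log2 difference 0.19, SE 0.15). *Dnal1* had 59.0, 52.8 and 56.2 CPM in *WT/WT* and 56.3, 64.8 and 59.5 CPM in *MIS/MIS*, overlapping, with the smallest log2 difference of the 10, 0.08 (SE 0.09).

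Of the docking genes, *Ccdc114*, a subunit of the docking complex on the doublet, had 56.1, 57.4 and 58.9 CPM in *WT/WT* and 65.0, 80.4 and 66.5 CPM in *MIS/MIS*. It was higher without overlap, with a log2 difference of 0.27 (SE 0.10, 95% interval 0.04 to 0.50, limma voom, unadjusted p = 0.0283, adjusted p = 0.896). *Armc4*, an armadillo repeat protein needed for docking (chromosome 18, 7088209 to 7297936, minus strand), had 59.8, 54.6 and 64.7 CPM in *WT/WT* and 58.1, 91.3 and 67.9 CPM in *MIS/MIS*. MT1301 lay inside the *WT/WT* range, and the log2 difference was 0.23 (SE 0.16). *Ccdc151*, a coiled-coil docking protein, had 64.2, 72.4 and 74.7 CPM in *WT/WT* and 70.0, 83.8 and 80.6 CPM in *MIS/MIS* (log2 difference 0.12, SE 0.09). *Ttc25*, a docking protein with tetratricopeptide repeats, had 60.3, 66.9 and 63.8 CPM in *WT/WT* and 61.3, 75.4 and 72.5 CPM in *MIS/MIS* (log2 difference 0.10, SE 0.10). The groups of both overlapped.

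In counts, *Dnah5*, *Dnaic2* and *Ccdc114*, 3 of 10, were higher in *MIS/MIS* without overlap, where this held for 6.84% of all genes tested. None was lower without overlap, against 3.19% of all genes. An unadjusted p under 0.05 was reached by *Dnaic2* and *Ccdc114*, 2 of 10, against 4.32% of all genes. The median log2 difference of the 10 was 0.23, beside 0.01 over all genes tested. Fitted values were above 0 for 51.5% of all genes tested. The direction of the 10 genes is not 10 pieces of evidence, since they share the same mice and cells.

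**Figure D3:**
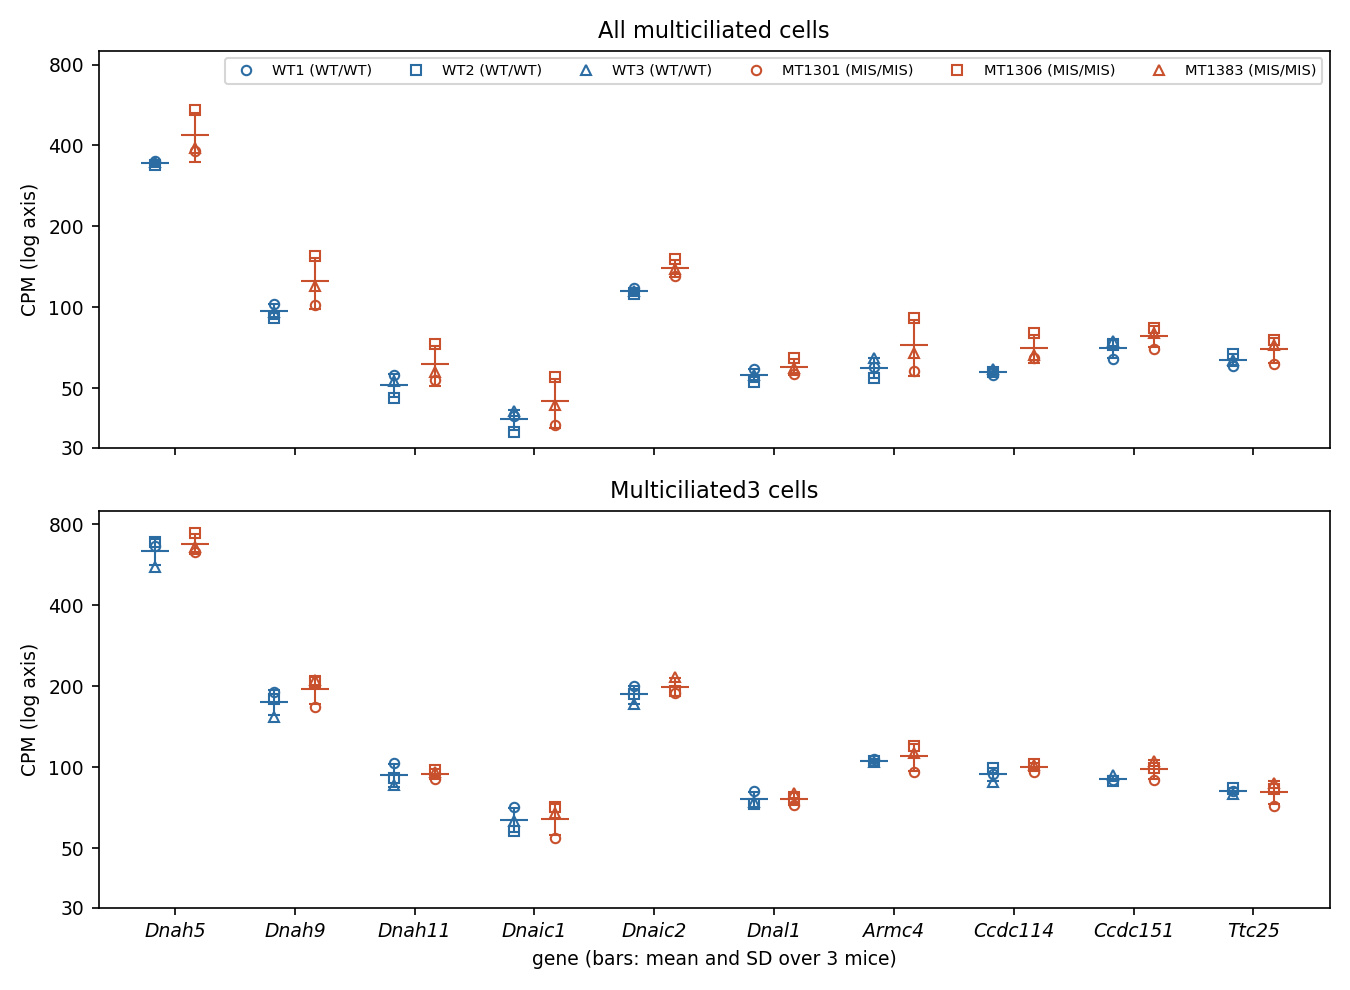
CPM of the 10 genes in each mouse (log axis; blue *WT/WT*, red *MIS/MIS*; symbols are mice, bars the mean and SD over 3 mice) in all multiciliated cells (top) and in Multiciliated3 cells (bottom). In the top panel MT1306 (red square) is the highest mouse for all 10 genes. In the bottom panel the groups overlap for all 10, where 4.91% of all genes tested were higher in *MIS/MIS* and 4.7% lower without overlap.

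The cluster composition differed between mice, and its part in these levels was not tested. Multiciliated3, where most members are highest, made up 52.1%, 43.0% and 58.9% of the multiciliated cells of WT1, WT2 and WT3, and 58.3%, 70.2% and 55.0% of those of MT1301, MT1306 and MT1383. MT1306 had the highest share of Multiciliated3 and the lowest share of Multiciliated2 (8.45%, where the other mice had 14.2% to 34.7%). The summed level of the 6 motor genes was 725, 675 and 709 CPM in *WT/WT* and 761, 1040.3 and 809 CPM in *MIS/MIS*. In Multiciliated3 alone it was 1312, 1277 and 1104 CPM in *WT/WT* and 1207, 1387 and 1329.5 CPM in *MIS/MIS*, so that the groups overlapped. The docking genes summed to 241, 251.3 and 262 CPM in *WT/WT* and 254, 331 and 287 CPM in *MIS/MIS*, and in Multiciliated3 to 373, 377 and 366 CPM against 353, 406 and 408 CPM. Cells of Multiciliated1 to Multiciliated3 were also drawn so that each mouse had the same composition of these clusters, with Multiciliated4 left out. The median log2 difference of the 10 genes was then 0.07, with values from 0.01 (*Dnal1*) to 0.16 (*Dnah9*) and adjusted p-values of 0.9994 (limma voom). Without MT1306 the median was 0.08, and the log2 differences ran from 0.03 (*Dnal1*) to 0.20 (*Dnaic2*), with 0.13 for *Dnah5*, 0.17 for *Dnah9*, 0.09 for *Dnah11*, 0.05 for *Armc4* and 0.05 for *Dnaic1*. The basal marker *Krt5* had 21.1, 16.3 and 18.1 CPM in *WT/WT* and 10.3, 4.71 and 9.23 CPM in *MIS/MIS* multiciliated cells. *Krt14* had 20.04, 16.8 and 31.0 CPM against 5.08, 5.45 and 15.3 CPM. Both were lower in *MIS/MIS* without overlap, where this held for 3.19% of all genes tested. The secretory markers *Scgb3a2* and *Bpifa1* overlapped. The further markers *Trp63* (basal) and *Scgb1a1* (secretory) are not given here. The part of these basal transcripts in the result was not tested.

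**Figure D4:**
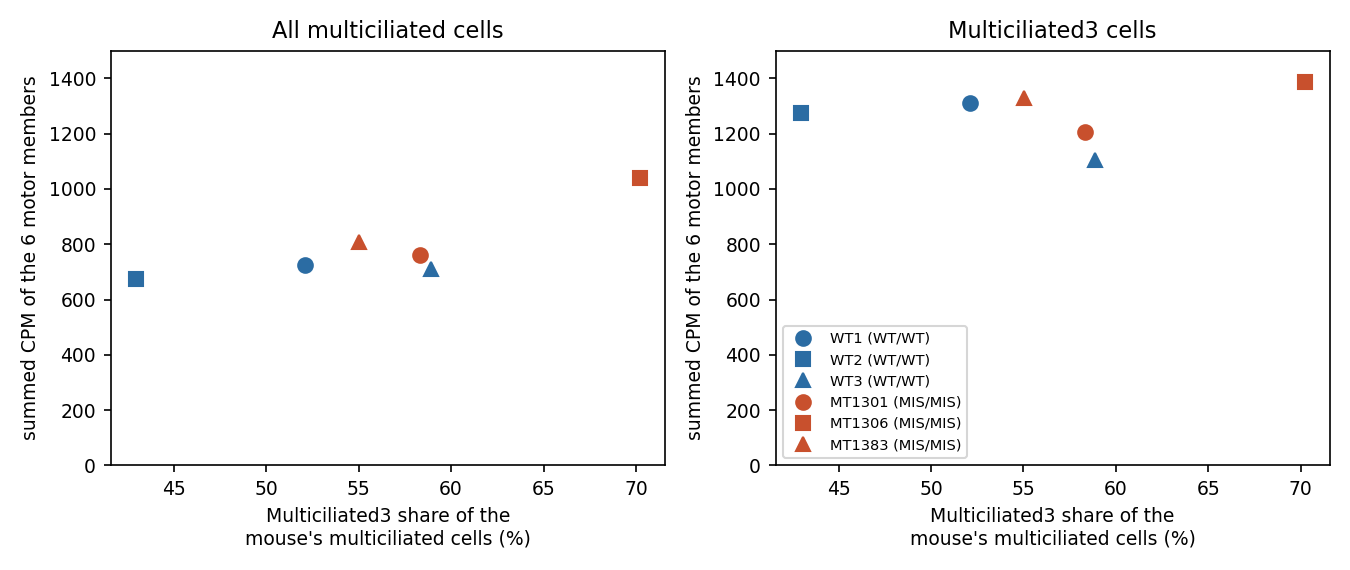
Summed CPM of the 6 motor genes in each mouse against the share of Multiciliated3 among the mouse's multiciliated cells (%), in all multiciliated cells (left) and in Multiciliated3 cells (right); colours are genotypes and symbols are mice. MT1306, at 70.2%, stands apart in the left panel with 1040.3 CPM, and in the right panel it has 1387 CPM beside 1312 CPM in WT1.

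Within Multiciliated3, 9 of the 10 genes had a fitted value above 0 (49.2% of all genes tested). None of the 10 was called, where 3 of 13096 genes were (0.0229%). The groups overlapped for all 10, where 4.91% of all genes tested were higher in *MIS/MIS* and 4.7% lower without overlap. The lowest unadjusted p of the 10 was 0.168 (*Ccdc151*, limma voom). *Dnah5* had 663, 687 and 556 CPM in *WT/WT* and 633, 743 and 658 CPM in *MIS/MIS*, a log2 difference of 0.10 (SE 0.11, 95% interval -0.14 to 0.34). *Dnah9* had 191, 180.0 and 154 CPM in *WT/WT* and 168, 207 and 210.4 CPM in *MIS/MIS*, the largest log2 difference in this cluster, 0.16 (SE 0.11). *Dnaic2* and *Ccdc114*, without overlap in the pooled cells, had log2 differences of 0.10 (SE 0.09) and 0.10 (SE 0.07) here. *Ttc25* was the only one below 0, at -0.01 (SE 0.09), with 81.4, 83.9 and 79.6 CPM in *WT/WT* and 71.8, 83.3 and 87.3 CPM in *MIS/MIS*. The intervals of the 10 genes ran from -0.25 at the lowest to 0.42 at the highest, so changes larger than these lie outside them.

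In Multiciliated1, the cluster with low *Foxj1*, all 10 genes had fitted values above 0 (51.8% of all genes tested). The median log2 difference of the 10 was 0.29. None was called, beside 0.00874% of the 11446 genes tested. *Ccdc114* had 17.03, 28.1 and 20.6 CPM in *WT/WT* and 28.1, 30.7 and 32.3 CPM in *MIS/MIS*. MT1301 lay just above WT2, and the log2 difference was 0.46 (SE 0.16, limma voom, unadjusted p = 0.0162, adjusted p = 0.994). *Dnal1* was the other gene without overlap, with 25.2, 30.7 and 27.1 CPM in *WT/WT* and 32.1, 33.0 and 31.9 CPM in *MIS/MIS* (log2 difference 0.18, SE 0.11). These 2 of 10 stand beside 5.47% of all genes that were higher without overlap, and the 1 of 10 with an unadjusted p under 0.05 beside 3.97%. *Dnah5* had 83.9, 160.4 and 93.7 CPM in *WT/WT* and 134, 112 and 142 CPM in *MIS/MIS*. WT2 was the highest of the 6 mice for *Dnah5*, and also for *Dnah9*, *Dnah11*, *Dnaic2* and *Armc4*.

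In Multiciliated2, the cluster with *Deup1*, 9 of the 10 genes had fitted values above 0 (48.8% of all genes tested). The median of the 10 was 0.13. The groups overlapped for all 10, where 4.76% of all genes tested were higher in *MIS/MIS* and 3.01% lower without overlap. None was called, beside 0.00857% of the 11674 genes tested, and the lowest unadjusted p was 0.112 (*Dnaic2*, limma voom). *Dnaic1* had the largest log2 difference, 0.33 (SE 0.21), with 15.8, 26.1 and 19.2 CPM in *WT/WT* and 22.2, 24.5 and 33.2 CPM in *MIS/MIS*. It was 0.60 without WT2, 0.21 without WT1 and 0.11 without MT1383. Of the docking genes that are high in this cluster, *Ccdc151* had 82.2, 89.3 and 114 CPM in *WT/WT* and 77.8, 93.0 and 119.5 CPM in *MIS/MIS* (log2 difference 0.02, SE 0.17, 95% interval -0.36 to 0.41), and *Ttc25* had 76.0, 77.1 and 92.5 CPM against 75.8, 99.1 and 114 CPM (0.22, SE 0.16, -0.14 to 0.57). In Multiciliated4, where WT2 had 6 cells and was left out, 8 of the 10 genes had enough counts for the test. Their log2 differences ran from -0.14 (*Dnah9*) to 0.47 (*Armc4*), and none was called, beside 0.247% of the 3645 genes tested (lowest unadjusted p 0.193, *Armc4*, limma voom).

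Whether the genotype difference itself differed between clusters was tested with an interaction term. None of the 10 genes was called for Multiciliated1 against Multiciliated3, where 0.0377% of 13257 genes were, or for Multiciliated2 against Multiciliated3, where 0.0453% were. *Ccdc114* had the lowest p, with a log2 difference 0.34 higher in Multiciliated1 than in Multiciliated3 (SE 0.13, limma voom, unadjusted p = 0.02001, adjusted p = 0.9996). *Ttc25* had values of 0.40 (SE 0.20) for Multiciliated1, the largest of the 10, and 0.25 (SE 0.14, limma voom, unadjusted p = 0.0864) for Multiciliated2, where *Dnaic1* had 0.30 (SE 0.21).

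**Figure D5:**
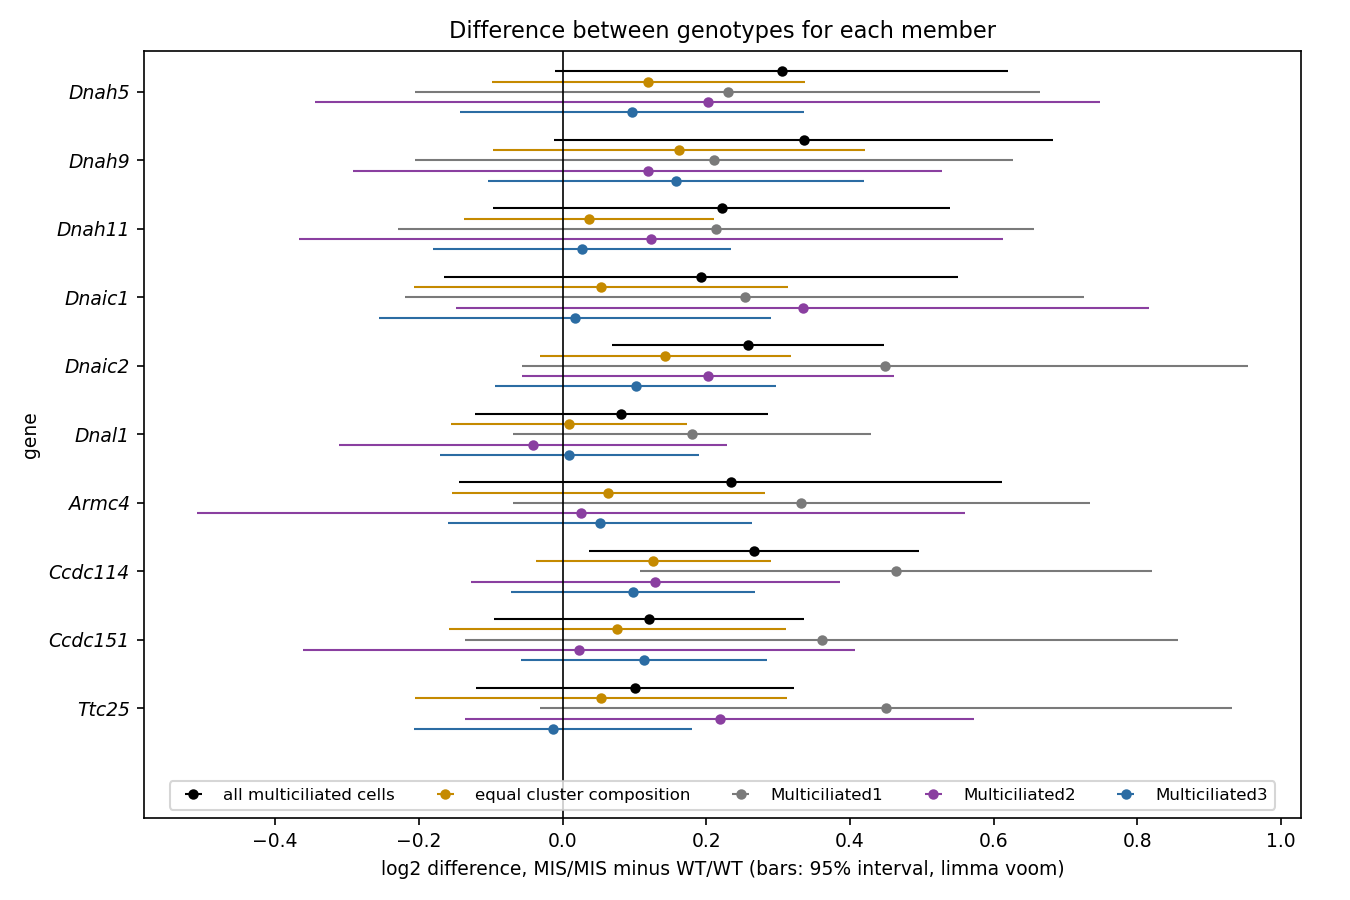
Log2 difference between *MIS/MIS* and *WT/WT* for each gene, with its 95% interval from limma voom, in all multiciliated cells, in cells of Multiciliated1 to Multiciliated3 drawn to equal cluster composition, and in Multiciliated1, Multiciliated2 and Multiciliated3. In Multiciliated3 every interval spans 0, and over all multiciliated cells those of *Dnaic2* and *Ccdc114* lie above 0.

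The balance of the heavy chain transcripts was compared next, because *Dnah5* pairs with *Dnah9* or with *Dnah11* in different stretches of the cilium. The log2 ratio of *Dnah9* to *Dnah11* was 0.88, 0.99 and 0.85 in *WT/WT* and 0.93, 1.08 and 1.06 in *MIS/MIS* multiciliated cells. It was 0.91 ± 0.07 and 1.02 ± 0.08 (SD, n = 3 mice each; exact two-sided permutation test over mice, p = 0.2). The log2 ratio of *Dnah5* to *Dnah9* was 1.77, 1.89 and 1.86 in *WT/WT* and 1.91, 1.81 and 1.71 in *MIS/MIS* (difference -0.03, exact permutation p = 0.7). With 3 mice against 3 the test cannot give a p below 0.1.

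Other genes of the arms and their assembly were compared in the pooled multiciliated cells. None of these lists had a called gene, and an unadjusted p under 0.05 was reached by 1 of 8 other outer arm genes, 2 of 12 inner arm genes, 1 of 14 assembly factors and 1 of 8 transcription regulators, against 4.32% of all genes tested. Of 8 tested other outer arm genes, such as cytoplasmic dynein light chains that the arm shares, 4 had fitted values above 0 and 4 below, with a median of 0.01. *Efcab1*, a calcium-binding protein of the outer arm, had 61.9, 70.8 and 67.1 CPM in *WT/WT* and 89.0, 124.6 and 107 CPM in *MIS/MIS*. It did not overlap between genotypes, and its log2 difference of 0.64 (SE 0.13, limma voom, unadjusted p = 0.000987, adjusted p = 0.896) was larger than that of any of the 10 members. In Multiciliated3 alone its log2 difference was 0.44 (SE 0.11). The light chain genes *Dynlrb2* and *Dnal4* had 0.28 (SE 0.13) and 0.11 (SE 0.08), and the heavy chain gene *Dnah8* -0.27 (SE 0.22).

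All 12 tested inner arm genes had fitted values above 0, with a median of 0.30, and in Multiciliated3 alone 11 of 12 did, with a median of 0.14. Of all genes tested, 51.5% were above 0 in the pooled cells and 49.2% in Multiciliated3. The directions of the inner arm genes are not separate pieces of evidence, since these genes share the same mice and cells. *Dnah10*, an inner arm heavy chain, had 5.69, 2.84 and 2.47 CPM in *WT/WT* and 5.85, 10.7 and 9.51 CPM in *MIS/MIS* (log2 difference 1.36, SE 0.36, limma voom, unadjusted p = 0.0053, adjusted p = 0.896). Its lowest *MIS/MIS* value lay just above the highest *WT/WT* value. *Dnah1*, *Wdr63* and *Dnah6* had log2 differences of 0.32 (SE 0.12), 0.30 (SE 0.14) and 0.31 (SE 0.15). Of the 14 assembly factors, 11 were above 0 and 3 below, with a median of 0.15, and in Multiciliated3 alone 9 were above 0, with a median of 0.05. *Dnaaf5* itself had 42.1, 38.2 and 49.4 CPM in *WT/WT* and 54.8, 54.9 and 49.3 CPM in *MIS/MIS*, overlapping, with a log2 difference of 0.28 (SE 0.11, adjusted p = 0.896, limma voom). *Lrrc6*, *Cfap300* and *Spag1* had 0.20 (SE 0.10), 0.28 (SE 0.17) and 0.18 (SE 0.10). Of the 8 transcription regulators of multiciliated cells, 4 were above 0 and 4 below. *Trp73*, which acts early in this lineage, had a log2 difference of 0.34 (SE 0.11), and *Ccno* and *Mcidas*, the genes of early multiciliated cells, had -0.48 (SE 0.29) and -0.44 (SE 0.29), while *Rfx2* had 0.16 (SE 0.12). Within Multiciliated2, where both are highest, *Ccno* had -0.07 (SE 0.13) and *Mcidas* -0.02 (SE 0.18), and *Ccno* was above 0 in Multiciliated1 (0.92, SE 0.36) and in Multiciliated3 (0.28, SE 0.20). The 1 gene called in the pooled cells was no member of any list: *Wdfy1*, named after its values were seen, had 25.2, 31.7 and 28.6 CPM in *WT/WT* and 100.2, 107.5 and 110.6 CPM in *MIS/MIS* (log2 difference 1.87, SE 0.10, limma voom, adjusted p = 0.000864).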

How the data were processed

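Single cells of 6 tracheal cultures were sequenced with a droplet 3′ protocol, 1 library per mouse. Per the labels, the authors aligned reads with Cell Ranger 7.1.0 to mm10, as named in the submitters' processing notes. The paper's methods name an older version of Cell Ranger. The authors deposited whole UMI counts of genes in single cells, and cell types from Seurat. The deposited cells number 23871, of which 23216 pass the study's stated filter (2500 to 7500 genes and at most 25% mitochondrial reads); all were kept, no doublet caller was run, and the upper gene limit is the study's own step against doublets. Both tables separate values by the characters "/t", so the unit was recorded as other, and the negative binomial test that had been planned, with its alternative, was replaced by limma voom (limma 3.58.1, R 4.3.3) on UMI counts summed per mouse with TMM factors. Low genes were dropped, those under a count equivalent to 10 at the median library size or under 15 in total, and Benjamini-Hochberg adjusted p under 0.05 was called. Mice with under 10 cells of a cluster were left out of its fit. Depth was 100961835 to 153326568 UMIs per library. Barcodes shared by libraries were kept, and left out as an alternative. Levels are CPM with no test. Positions are from GENCODE M21 (GRCm38) and promoters from the RefSeq table (GRCm38.p6). Scripts used Python 3.11.15 with pandas 2.3.3, and the tests were checked on simulated data. All 10 members are named in each comparison. From each other list, up to 4 genes with the lowest p in the pooled comparison are named, and the 5 genes most like the members' mean profile among those with at least 10 CPM in a multiciliated cluster. The members and lists were chosen with earlier results of these data known. The list genes *Nme8* and *Pih1d3* were not analysed here.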

Additional observations from a re-analysis of the deposited data

How the results depend on the processing

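The pooled comparison was recomputed under 13 alternatives, and all 130 fitted values of the 10 genes lay above 0, with adjusted p-values between 0.5004 and 0.9999. No member was called under any alternative, limma-trend included, pooled or by cluster. Their median log2 difference in the pooled cells was 0.08 to 0.32 with 1 mouse left out, the lowest value being that without MT1306. limma-trend, the fit without cells of shared barcodes and the ratios in Multiciliated3 or with a mouse left out were chosen after seeing the data. The DESeq2 alternative and the planned negative binomial test were not run, because the unit had been recorded as other. The values could be read as counts, with 0 that were not whole numbers or were below 0. In Multiciliated4, with 146 cells and WT2 left out, *Dnah11* and *Ccdc114* had too few counts to be fitted. No paired analysis was possible because the *MIS/MIS* cell names carry numbers found in no sample title.

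Several fitted values changed sign, none of them called, and the cause was not tested. With limma-trend, *Ccdc151* was -0.0040 in Multiciliated2. Without the low-count filter, *Ttc25* was 0.0021 in Multiciliated3, and the interaction values for Multiciliated2 were -0.016 for *Armc4* and -0.0013 for *Ccdc114*. With upper-quartile factors, the interaction value of *Dnah9* for Multiciliated1 was 0.0092. With 1 mouse left out, the log2 differences that crossed 0 in Multiciliated3 were *Dnah5* -0.0076 to 0.16, *Dnah11* -0.050 to 0.12, *Dnaic1* -0.060 to 0.12, *Dnal1* -0.025 to 0.071, *Armc4* -0.024 to 0.14 and *Ttc25* -0.059 to 0.062. Those in Multiciliated2 were *Dnah5* -0.041 to 0.37, *Dnah9* -0.012 to 0.42, *Dnah11* -0.069 to 0.28, *Dnal1* -0.13 to 0.023, *Armc4* -0.26 to 0.32 and *Ccdc151* -0.17 to 0.18. In Multiciliated4 they were *Dnah5* -0.25 to 0.16, *Dnah9* -0.44 to 0.21, *Dnaic1* -0.23 to 0.62, *Dnaic2* -0.016 to 0.14, *Dnal1* -0.51 to 0.63, *Armc4* -0.012 to 0.93 and *Ttc25* -0.18 to 0.25. The interaction values that crossed 0 were, for Multiciliated1, *Dnah5* -0.083 to 0.31, *Dnah9* -0.19 to 0.23 and *Dnaic1* -0.073 to 0.37, and for Multiciliated2, *Dnah5* -0.16 to 0.31, *Dnah9* -0.21 to 0.22, *Dnah11* -0.093 to 0.23, *Armc4* -0.23 to 0.20, *Ccdc114* -0.0027 to 0.061 and *Ccdc151* -0.23 to 0.010. The difference in the log2 ratio of *Dnah5* to *Dnah9* ran from -0.083 to 0.019, and was above 0 only without MT1383. The median number of members seen per Multiciliated3 cell was 9 without thinning.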

Other observations

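The lists of the wider pathway differed in their levels in Multiciliated2, given here as a description since the clusters were made from all genes. In Multiciliated1 the medians as a percentage of the level in Multiciliated3 were 19.997% for the inner arm genes, 21.6% for the docking genes, 22.4% for the motor genes, 23.9% for the assembly factors and 26.7% for the regulators. The other outer arm genes had a higher median there, 44.1%, with single genes from 17.3% to 105%. Levels in Multiciliated2 as a percentage of those in Multiciliated3, for genes with at least 10 CPM in a multiciliated cluster, had a median of 30.7% for the 6 motor genes, 70.1% for the 4 docking genes, 44.2% for 12 inner arm genes, 69.9% for 13 assembly factors and 147% for 8 transcription regulators. For 8 other outer arm genes the median was 71.5%. Of the 13 assembly factors, 5 were at or above their Multiciliated3 level in Multiciliated2. They were *Zmynd10* at 204%, *Wdr92* at 195%, *Cfap298* at 136%, *Dnaaf2* at 126% and *Ccdc103* at 111%, and they were named after their values were seen. *Dnaaf5* was at 50.7%. None of the 6 motor genes or 12 inner arm genes reached its Multiciliated3 level there. Of the 8 regulators, 4 were at or above their Multiciliated3 level in Multiciliated2, among them *Foxj1* at 208% and *Myb* at 497%. The other 4 were below it, with *Rfx3* at 41.6%, *Gmnc* at 55.1%, *Rfx2* at 57.4% and *Trp73* at 85.6%.

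*Sult1d1*, a sulfotransferase gene, and *Fank1* were called between genotypes in Multiciliated3 beside *Wdfy1*, and were named after their values were seen. *Sult1d1* had 254, 254.6 and 229.9 CPM in *WT/WT* and 457, 434 and 469 CPM in *MIS/MIS* (log2 difference 0.88, SE 0.07, limma voom, adjusted p = 0.00545). *Fank1* had 129.8, 145 and 127 CPM in *WT/WT* and 68.3, 74.95 and 70.5 CPM in *MIS/MIS* (log2 difference -0.91, SE 0.08, limma voom, adjusted p = 0.00728).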
